A study of Mus musculus with 5 samples.

Results

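RNA of 8 crystallin genes was followed through 5 libraries of mouse embryonic stem (ES) cells. The genes were Cryga, Crygb, Crygc, Crygd, Cryge and Crygf of the γ-crystallin family, Crygs, which encodes γS-crystallin, and Cryab, which encodes αB-crystallin. They were taken by name from a table of 24016 genes and had been selected on their levels in these same libraries, above all on the difference between NOD and B6, so that their levels are given here as a description, and nothing is read from the calls they received in fits across all genes. NOD is an inbred strain that develops autoimmune diabetes spontaneously, and 2 NOD lines gave 1 library each, called NOD replicate 1 and NOD replicate 5. B6 (C57BL/6), NZB and v6.5 (strain label 129SvJae6C57BL6) gave 1 library each. NZB mice develop an autoimmune disease that resembles lupus, and v6.5 is a common laboratory ES line with C57BL/6 and 129 parents. All 5 libraries came from ES cells grown with inhibitors of MEK and GSK3 and, per the study's methods, without feeder cells, and no group carried a further treatment or an engineered allele.

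Crystallins are the soluble proteins that fill the fibre cells of the eye lens and give it its refractive power. The γ-crystallins are compact monomers made late in fibre cell differentiation, and variants of several of them cause cataract. αB-crystallin belongs to the small heat shock proteins, which hold unfolded proteins in solution, and is also made in muscle, heart and other tissues. Genes of the γ family lie next to each other in mammals and resemble each other closely in sequence.

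On the mm9 genome build used for the deposited table, Cryge, Crygd, Crygc, Crygb and Cryga followed each other in this order on the minus strand of chromosome 1, from position 65095131 to 65149937, a stretch of 54.8 kb. The gaps between neighbouring genes ran from 6.69 kb, between Crygc and Crygb, to 18.1 kb, between Crygb and Cryga. Crygf lay on the plus strand of the same chromosome, from 65973096 to 65974878, and 823 kb with 4 other genes separated it from Cryga. Crygs was found on chromosome 16 (22805276 to 22811483, minus strand) and Cryab on chromosome 9 (50559430 to 50564740, plus strand). The first part of Cryab overlaps Hspb2, a related small heat shock protein gene that is read from the opposite strand, and counting kept the strands apart.

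Start regions of 7 of the 8 genes were in the RefSeq promoter table used here (build GRCm38.p6). The 110 bases before each annotated start are shown because the γ genes that were read together in NOD share letters there. They lie at chr1:65063441-65063550 (Crygd), chr1:65073533-65073642 (Crygc), chr1:65103364-65103473 (Cryga), chr1:65051164-65051273 (Cryge) and chr1:65082291-65082400 (Crygb) on the minus strand, at chr1:65926412-65926521 (Crygf) on the plus strand, and at chr16:22811411-22811520 (Crygs) on the minus strand. Capitals mark every copy of the TATA box motif TATATA (in Crygs of TATAAA), most of them near the start, with a further copy at the far end of the Cryge window. Capitals in between mark the motif CTTTTGTG, of which Crygb has only the last 6 letters. The letters run 5′ to 3′ on the strand of the gene up to the base before the start.
Crygd: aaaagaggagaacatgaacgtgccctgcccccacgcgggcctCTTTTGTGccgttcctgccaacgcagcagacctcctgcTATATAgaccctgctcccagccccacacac
Crygc: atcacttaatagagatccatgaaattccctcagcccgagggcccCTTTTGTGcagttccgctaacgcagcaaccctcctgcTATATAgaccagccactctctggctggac
Cryga: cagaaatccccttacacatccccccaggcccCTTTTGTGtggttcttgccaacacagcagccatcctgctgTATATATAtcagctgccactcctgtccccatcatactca
Cryge: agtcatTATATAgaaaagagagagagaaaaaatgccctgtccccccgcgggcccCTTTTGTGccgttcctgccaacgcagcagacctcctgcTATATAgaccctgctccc
Crygb: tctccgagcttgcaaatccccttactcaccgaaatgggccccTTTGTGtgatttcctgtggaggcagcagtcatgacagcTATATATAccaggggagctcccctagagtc
Crygf: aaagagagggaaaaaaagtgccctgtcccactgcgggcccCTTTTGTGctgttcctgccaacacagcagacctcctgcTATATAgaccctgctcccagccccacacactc
Crygs: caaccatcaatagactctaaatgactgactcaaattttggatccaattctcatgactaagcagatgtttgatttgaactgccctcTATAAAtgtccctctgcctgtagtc

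TATATA, a form of the TATA box that positions transcription starts, was present in all 6 γ windows, the copy nearest the annotated start having its first base 18 (Cryge) to 37 (Cryga) bases before it. Cryge held a second copy 104 bases before its start, and in Cryga and Crygb overlapping copies began 39 and 30 bases before. Of the 27025 promoters in the table, 5.56% held it anywhere in the 250 bases before the start, and since it reads the same on both strands no second strand had to be searched. Crygs carried another TATA box form, TATAAA, in its place, found on either strand in 13.0% of promoters. TTTGTG was the other stretch of 6 letters common to the 6 γ windows, and 15.7% of promoters held it on either strand. The longer CTTTTGTG was common to Crygd, Crygc, Cryga, Cryge and Crygf and was found on either strand in 1.20% of promoters. Crygd, Crygc, Cryge and Crygf shared a run of 18 letters around the TATATA, CCTCCTGCTATATAGACC, and these 4 were the only promoters of the 27025 that held it on either strand. TGCTGA, a core that Maf factors bind in lens genes, was found on either strand within 250 bases of the starts of Crygc, Cryga and Crygs and in 15.8% of all promoters. The stretches given as common to, or shared by, γ genes were picked by comparing these same windows. How rare they are among all promoters is therefore a description, and nothing is read from it, the 4 of 27025 included. Compared letter by letter without gaps, allowing a shift of up to 15 bases, Cryge and Crygf were 92.7% identical over 96 bases. Crygd was 85.7% identical to Cryge over 98 bases and 85.2% to Crygf over 108. All other pairs of γ genes except Cryga and Cryge lay between 33.0% (Crygc and Crygb) and 56.4% (Cryga and Crygf). Cryga and Cryge gave 32.3%, but a shift of up to 15 bases could not line up their shared motifs. CTTTTGTG began 79 bases before the start in Cryga and 56 in Cryge, and the nearest TATATA began 37 and 18 bases before. The 32.3% is therefore no measure of how alike these windows are. Crygs was at most 37.4% identical to any γ gene at the shifts allowed. Crygf, whose window holds the capitals of Crygd in the same order, gave 1 read in all 5 libraries.

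Depth limits what can be said of genes this low. The deposited values, which are read counts rescaled to equal totals, were turned back into whole reads, 7713133 to 21387796 per library, and then divided by composition factors (TMM) to give the normalised read counts below. Rn45s, the ribosomal RNA precursor, took 41.4% of the B6 reads against 1.95% to 14.3% elsewhere, which is why equal totals alone were not used. Intervals around single libraries are exact Poisson 95% intervals and cover counting error only. They hold nothing of the spread between cultures, which only the 2 NOD lines can show. The header of the table lists 2 libraries as B6, none as v6.5, 2 as NOD and 1 as NZB, and joins the numbers 5 and 6 in the name behind NOD replicate 5. Which line stands behind B6, v6.5 and NOD replicate 5 is therefore known from the labels alone, which bears on v6.5 against B6 above all. All 14 markers of naive ES cells looked for, among them Pou5f1, Nanog and Sox2, had at least 10 reads in every library. Of the 14, 5 were called in NOD against B6 by limma, edgeR and DESeq2 alike, Dppa3 and Zfp42 higher (3.14% of all genes tested by limma) and Klf4, Klf5 and Tbx3 lower (3.05%), Klf4 and Tbx3 being named after their values were seen. Unadjusted limma p was under 0.05 for 8.

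Crygd gave most of the signal, 65.2% of the 2224 reads that the 8 genes had together. Its reads numbered 2 in B6, 4 in v6.5, 167 in NOD replicate 1, 1194 in NOD replicate 5 and 84 in NZB. Normalised read counts were 2.81 in B6, 5.41 in v6.5, 254 in NOD replicate 1, 578 in NOD replicate 5 and 86.5 in NZB, so both NOD libraries lay above NZB, and NZB above B6 and v6.5. The NOD mean was 416 ± 229 (SD, n = 2). Per kilobase of exon the NOD mean was 661, compared with 137 in NZB. Against the 2 B6 reads, NOD replicate 1 was 90.4 times higher (counting interval 24.6 to 753) and NOD replicate 5 was 205 times higher (56.8 to 1699). NZB exceeded v6.5 by 16.0 times (6.02 to 60.04), while v6.5 and B6 could not be separated at this depth, with a ratio of 1.92 and an interval of 0.275 to 21.2. The NOD lines also differed from each other, NOD replicate 5 being 2.27 times higher (1.93 to 2.69) than NOD replicate 1.

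**Figure D1:**
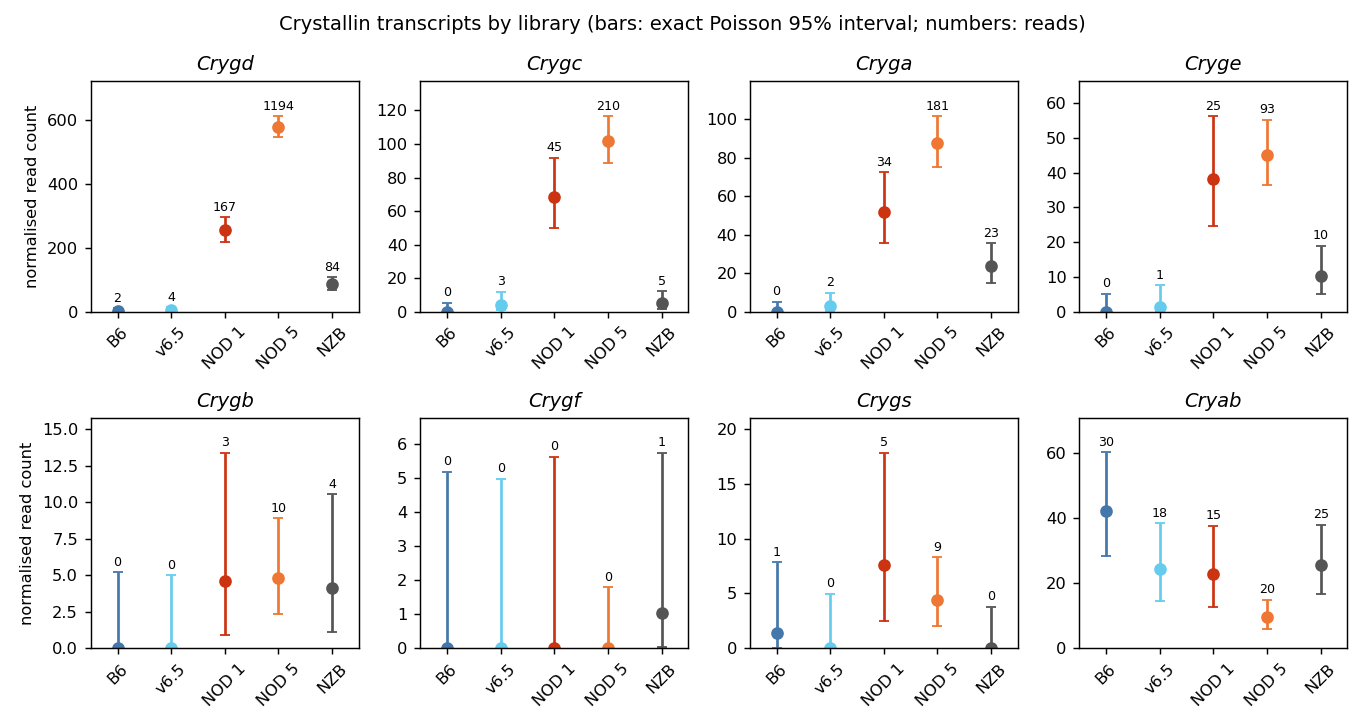
Normalised read count (y axis, from 0) of each crystallin gene in each library (x axis), with exact Poisson 95% intervals as bars and the reads as numbers. The 2 NOD libraries stand highest for Crygd, Crygc, Cryga and Cryge, NZB is between for Crygd (84 reads), Cryga (23) and Cryge (10), and Cryab shows another order, with NOD replicate 5 lowest and with the B6 interval overlapping those of v6.5, NOD replicate 1 and NZB.

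Crygc, a neighbour of Crygd in the cluster, was read 0 times in B6, 3 times in v6.5, 45 times in NOD replicate 1, 210 times in NOD replicate 5 and 5 times in NZB. Normalised read counts were 0, 4.06, 68.6, 102 and 5.15 in that order, so that here NZB stood with v6.5 and not with NOD. The NOD mean was 85.1 ± 23.4 (SD, n = 2). With B6 set to a floor of 3 reads, NOD replicate 1 was at least 16.2-fold and NOD replicate 5 at least 24.1-fold higher than B6. The floor leaves out the counting error of the NOD libraries, and exact intervals of the ratios, which include it, began at 12.7 and 19.4. NOD replicate 1 was 13.3 times (5.31 to 43.0) and NOD replicate 5 was 19.8 times (8.33 to 61.5) above NZB, the largest separation of NOD from NZB among the 4 γ genes with over 100 reads in all. NZB and v6.5 differed by 1.27 times with an interval of 0.247 to 8.17.

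Cryga, at the other end of the cluster, was read 0, 2, 34, 181 and 23 times in B6, v6.5, NOD replicate 1, NOD replicate 5 and NZB. The NOD mean was 69.7 ± 25.4 normalised read counts (SD, n = 2), with 23.7 in NZB and 2.70 in v6.5. Against the same floor NOD replicate 1 was at least 12.3-fold and NOD replicate 5 at least 20.8-fold higher than B6 (exact intervals from 9.45 and 16.7). NOD replicate 1 exceeded NZB by 2.19 times (1.25 to 3.89) and NOD replicate 5 did so by 3.70 times (2.39 to 5.99), so Cryga came closer to its NOD level in NZB than Crygc did. NZB in turn was 8.76 times above v6.5 (2.16 to 76.6).

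Cryge was read 0, 1, 25, 93 and 10 times in the same order of libraries. Its NOD mean was 41.6 ± 4.92 normalised read counts (SD, n = 2), and NZB had 10.3. The NOD lines were at least 9.02-fold and 10.7-fold higher than B6 by the floor (exact intervals from 6.81 and 8.51). The NOD lines could not be told apart for this gene, at a ratio of 1.18 (0.754 to 1.92), whereas they could for Crygd. Crygb, which lies between Crygc and Cryga, had 0 reads in B6 and v6.5, 3 in NOD replicate 1, 10 in NOD replicate 5 and 4 in NZB. Its normalised read counts of 4.57, 4.84 and 4.12 in the last 3 of these libraries were close to what 3 reads are worth in B6 (4.22), so no fold against B6 is given. Levels did not follow the order of genes along the cluster, since Crygb was flanked on both sides by genes with NOD means of 85.1 (Crygc) and 69.7 (Cryga).

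Crygf had 0 reads in 4 libraries and 1 in NZB. In NOD replicate 5, the deepest library, the floor of 3 reads is worth a normalised read count of 1.45, and the exact interval of a count of 0 reaches 1.79. Both are below the values of the 5 clustered γ genes there, of which Crygb was lowest at 4.84. Crygs was read 1, 0, 5, 9 and 0 times in B6, v6.5, NOD replicate 1, NOD replicate 5 and NZB. The Crygs counts of NOD replicate 5 and B6 could not be separated (3.10 times, 0.429 to 136), nor could those of NOD replicate 1 and B6 (5.41 times, 0.606 to 256).

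Summed over Cryga, Crygb, Crygc, Crygd and Cryge, the cluster had 2 reads in B6, 10 in v6.5, 126 in NZB, 274 in NOD replicate 1 and 1688 in NOD replicate 5. Counted per 1000000 reads of each library, with no composition factor, the cluster stood at 0.149, 1.16, 13.1, 35.5 and 78.9 in that order. This is the scale of equal totals, on which the Rn45s reads of B6 (41.4%) lower its value. Normalised read counts of the cluster were 2.81, 13.5, 130, 418 and 818 in the same order. The share of each gene in the cluster reads does not depend on the scaling between libraries at all. Crygd took 60.9% of them in NOD replicate 1 (exact binomial 95% interval 54.9 to 66.8). In NOD replicate 5 it took 70.7% (68.5 to 72.9), and 66.7% of the NZB reads were Crygd (57.7 to 74.8). Crygc took 16.4% (12.2 to 21.4) and 12.4% (10.9 to 14.1) in the NOD lines and 3.97% (1.30 to 9.02) in NZB. Intervals of the NOD lines and NZB thus did not overlap for Crygc, and they did for Crygd. For Crygd the intervals of the 2 NOD lines did not overlap each other, so lines of 1 strain differed by more than counting error. Cryga took 12.4%, 10.7% and 18.3%, Cryge 9.12%, 5.51% and 7.94%, and Crygb 1.09%, 0.592% and 3.17% in NOD replicate 1, NOD replicate 5 and NZB. With 10 reads in v6.5 and 2 in B6, no make-up could be given for these libraries.

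**Figure D2:**
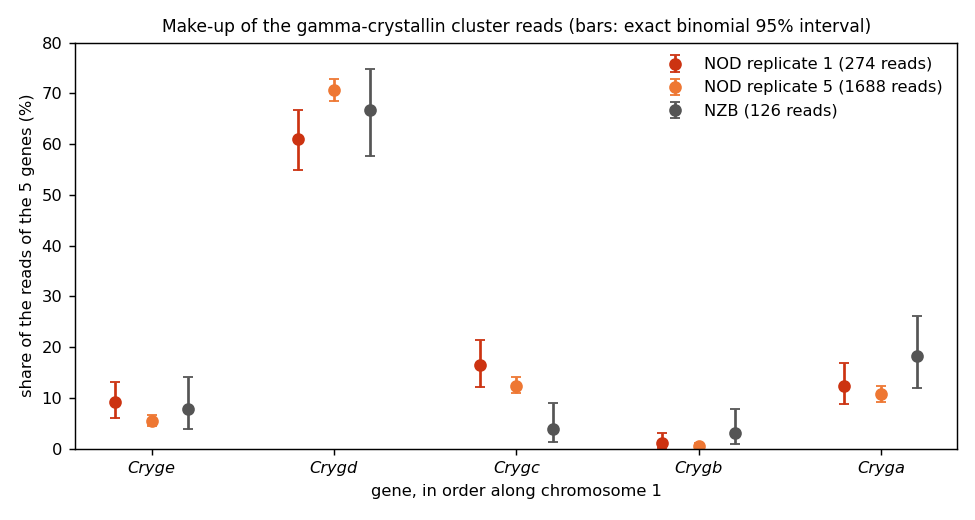
Share (%, y axis) of each of the 5 clustered γ-crystallin genes (x axis, in chromosomal order) in the reads of the cluster, in NOD replicate 1, NOD replicate 5 and NZB, with exact binomial 95% intervals. Crygd takes 60.9% to 70.7% in all 3, and its intervals in the NOD lines do not overlap each other. Crygc is lower in NZB, at 3.97%, than in the NOD lines, at 16.4% and 12.4%.

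Because γ genes resemble each other, a read may fit more than 1 of them. Of the stretches of 50 bases, the read length, in the GENCODE transcripts (vM21, GRCm38), 57.0% of those of Cryge were also found in another γ gene, 35.0% of those of Crygf, 34.0% of those of Crygd, 29.4% of those of Crygb, 24.0% of those of Crygc and 5.73% of those of Cryga. The sharing followed 2 groups. Cryge shared 33.2% of its stretches with Crygd and 34.7% with Crygf, and Crygc shared 23.4% with Crygb. No stretch of Crygd or Cryge was found in Crygc or Crygb. Outside the family, 52.3% of the stretches of Cryga also occurred in Gm28845, a GENCODE gene model that overlaps Cryga on the same strand. Crygs and Cryab shared none with any other gene. Values of Crygd and Cryge, and of Crygc and Crygb, are therefore uncertain relative to each other, since the study's methods speak of uniquely alignable reads but how reads that fit several places were counted is not given in the sources used here. Strain differences from the reference genome, which could also cost reads, were not tested.

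**Figure D3:**
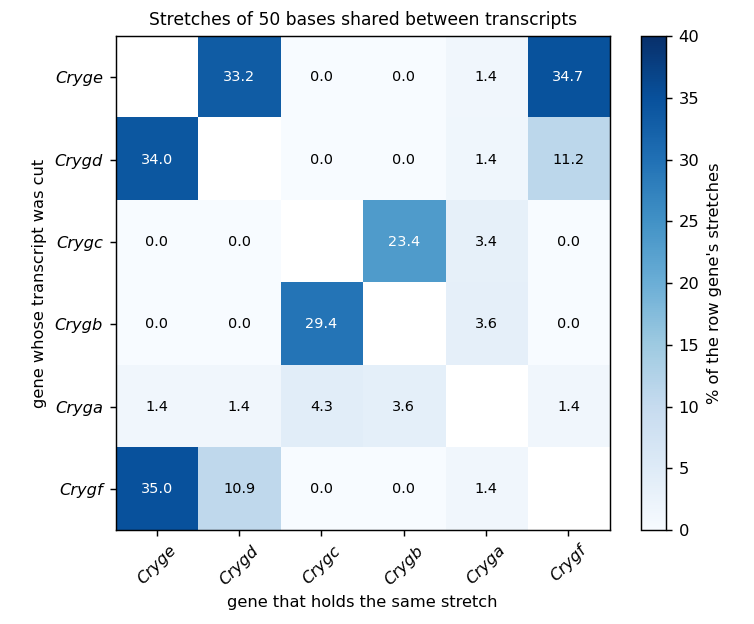
Percentage of the 50-base stretches of each γ-crystallin transcript (rows) that also occur in another γ-crystallin transcript (columns). Sharing is highest among Cryge, Crygd and Crygf (up to 35.0%) and between Crygc and Crygb (23.4% and 29.4%), and Cryga shares at most 4.34% with any of them.

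In the fits across all genes (limma on log2 values, Benjamini-Hochberg adjusted p under 0.05), 5 of the 8 genes passed the filter on low counts. Cryga, Crygc, Crygd and Cryge were called higher in NOD than in B6, beside 3.14% of the 14325 genes tested, and Cryab was not called. Crygb, Crygf and Crygs had too few reads to be tested. The genes were chosen with the levels of all 5 libraries known, above all for this contrast. Cryga, Crygc, Crygd and Cryge, with 0 to 4 reads in B6 and v6.5, passed the filter against B6 through NOD alone. In the fits on 5 libraries they passed it through NOD, some also through NZB. Nothing is therefore read from these calls or from those that follow. In NOD against v6.5 Crygd was called higher (background 0.98%), and Cryga, Crygc and Cryge were not. None of the 5 was called in NOD against NZB (background 0.616% in either direction), NZB against B6 (0.14%) or v6.5 against B6 (0.007%). edgeR's quasi-likelihood test on the whole reads called more: Cryga, Crygc and Crygd in NOD against v6.5 (background 2.98%), and Crygd in NOD against NZB (1.07%) and in NZB against B6 (0.889%), each time higher in the first of the 2. DESeq2 called Crygd in NOD against v6.5 (background 1.87%) and in NZB against B6 (0.525%), and no member in NOD against NZB. These comparisons share libraries, and each strain with 1 library was assumed to vary like the NOD lines. Nothing in the labels says that the NOD lines were cultured separately, so the p-values cover no more than the spread seen among these libraries.

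Cryab, the small heat shock protein of the group, showed another order. It was read 30 times in B6, 18 in v6.5, 15 in NOD replicate 1, 20 in NOD replicate 5 and 25 in NZB, which gave normalised read counts of 42.2, 24.3, 22.9, 9.69 and 25.7. NOD replicate 5 was lowest, and the intervals of B6 (28.5 to 60.3), v6.5, NOD replicate 1 and NZB overlapped. The place of B6 depended on the scaling, since per 1000000 reads Cryab stood at 2.61 in NZB, 2.23 in B6, 2.09 in v6.5, 1.94 in NOD replicate 1 and 0.935 in NOD replicate 5. The NOD mean was 16.3 ± 9.31 (SD, n = 2). NOD replicate 5 was 0.229 times B6 (0.124 to 0.418) and NOD replicate 1 was 0.541 times B6 (0.271 to 1.04). The NOD lines differed from each other by a similar factor, NOD replicate 5 being 0.424 times NOD replicate 1 (0.206 to 0.890). Hspb2, its overlapping neighbour, had normalised read counts of 5.64, 16.2, 48.8, 2.91 and 7.21 in B6, v6.5, NOD replicate 1, NOD replicate 5 and NZB, highest in NOD replicate 1, where Cryab was not.

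The other lens crystallins were low or absent, but Crybb3 and Crygn had more reads in total than the members Crygb, Crygf and Crygs. Crybb3, a β-crystallin, was read 1, 2, 11, 19 and 14 times in B6, v6.5, NOD replicate 1, NOD replicate 5 and NZB. Crygn, a γ-crystallin gene outside the cluster, on chromosome 5, was read 0, 1, 11, 14 and 3 times. Normalised read counts of Crybb3 were 1.41 in B6, 2.70 in v6.5, 16.8 and 9.20 for the NOD lines and 14.4 for NZB, and those of Crygn were 0, 1.35, 16.8, 6.78 and 3.09 in the same order. Against B6, Crybb3 was 11.9 times higher in NOD replicate 1 (counting interval 1.73 to 513), 6.54 times in NOD replicate 5 (1.04 to 272) and 10.2 times in NZB (1.56 to 433). Exact intervals of Crygn against B6 began at 2.72 in NOD replicate 1, 1.14 in NOD replicate 5 and 0.302 in NZB. Fitted log2 fold changes of NOD against B6 were 2.44 (Crybb3) and 3.44 (Crygn, which rests on the 1 added before logs, since B6 had no read). Limma called neither gene in any of the 5 comparisons, 1 of the 2 had an unadjusted p under 0.05 in NOD against B6, and edgeR and DESeq2 called 0 there. Cryaa, the α-crystallin found almost only in lens, had 3 reads in v6.5, 3 in NOD replicate 5 and 0 elsewhere. Cryba4 had 2 in B6 and 3 in NOD replicate 5, Crybb1 had 0 in B6 and 1 or 2 elsewhere, Cryba1 had 2 in NOD replicate 5 and 1 in NZB, Cryba2 had 1 in B6, and Crybb2 had 1 in NZB. These 6 fell to the filter.

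Genes that build or regulate the lens were compared next. Of 13 genes of lens fibre cells, 6 were tested in NOD against B6 and 0 were called by limma, edgeR or DESeq2 (0 with an unadjusted limma p under 0.05), with a median log2 fold change of 0.16 beside 0.02 over all genes. Of 22 lens regulators, 17 were tested, 0 were higher and 2 were lower (background 3.05%), with a median of -0.46. The 2 were Sox11, with 1313 normalised read counts in B6 against 61.0 and 70.2 in the NOD lines (log2 fold change -4.31 ± 0.59 SE, limma adjusted p = 3.97e-05), and Zeb2, with 95.7 against 4.57 and 7.75 (-3.78 ± 1.12, limma adjusted p = 0.0406). Sox11 stood at 103 in v6.5 and 171 in NZB. edgeR called Hes1, a Notch target, lower as well. Foxe3, a factor of the lens epithelium, was at 0 in all 5 libraries. The summed level of 19 lens markers ranged from 639 (NOD replicate 5) to 995 (v6.5), with 871 for B6, 929 for NOD replicate 1 and 940 for NZB. Nearly all of each sum came from the lens fibre genes, 870 in B6 and 622 in NOD replicate 5. Of the 19, 13 had a read in B6, 15 in v6.5, 12 in NOD replicate 1, 14 in NZB and 17 in NOD replicate 5, the deepest library. Whether these markers bear on the γ reads was not tested.

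Relatives of the members by function were examined in the same way. Of the 5 small heat shock protein genes tested beside Cryab, 0 were called in NOD against B6 by limma, edgeR or DESeq2, 0 had an unadjusted limma p under 0.05, and the median log2 fold change was 0.84. Of 17 genes of the heat shock response, 0 were higher (background 3.14%) and 1 was lower (3.05%) in NOD. This was Hspa8, a constitutive chaperone, with 10623 normalised read counts in B6 and 8749 in v6.5 against 510 (NOD replicate 1), 1042 (NOD replicate 5) and 660 (NZB) (-3.87 ± 0.47 SE against B6, limma adjusted p = 6.56e-06). Enzyme crystallins are recruited to the lens as abundant proteins in some vertebrates, and the list of these also held related genes. Of 7 tested, 1 was higher (background 3.14%), Cryzl1, a quinone oxidoreductase relative. It had 251 (B6), 356 (v6.5), 483 and 1447 (NOD lines) and 377 (NZB) (1.73 ± 0.53 SE, limma adjusted p = 0.0499), and DESeq2 did not call it.

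Around the γ cluster, 12 other genes lay within 1 Mb and 11 of them were tested in NOD against B6. Their median log2 fold change was 0.20, beside 0.02 over all genes, and 1 was called higher (background 3.14%). This was Idh1, which encodes cytosolic isocitrate dehydrogenase, with 1503 normalised read counts in B6, 3026 in v6.5, 5777 in NOD replicate 1, 5855 in NOD replicate 5 and 2441 in NZB (1.95 ± 0.46 SE, limma adjusted p = 0.00977), which edgeR and DESeq2 called as well. The nearest gene beyond Cryga, D630023F18Rik, lay on the minus strand with its 3′ end 3.95 kb away. It had 242 and 239 normalised read counts in the NOD lines, 99.9 in B6, 83.8 in v6.5 and 31.9 in NZB, and it did not pass the test against B6 (1.25, limma adjusted p = 0.234). NZB, intermediate for Crygd, was lowest for this neighbour. The nearest gene on the side of Cryge, Akr1cl, 15.8 kb away, was at 1.40, 10.8, 7.62, 14.5 and 13.4 in B6, v6.5, NOD replicate 1, NOD replicate 5 and NZB and did not pass either.

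**Figure D4:**
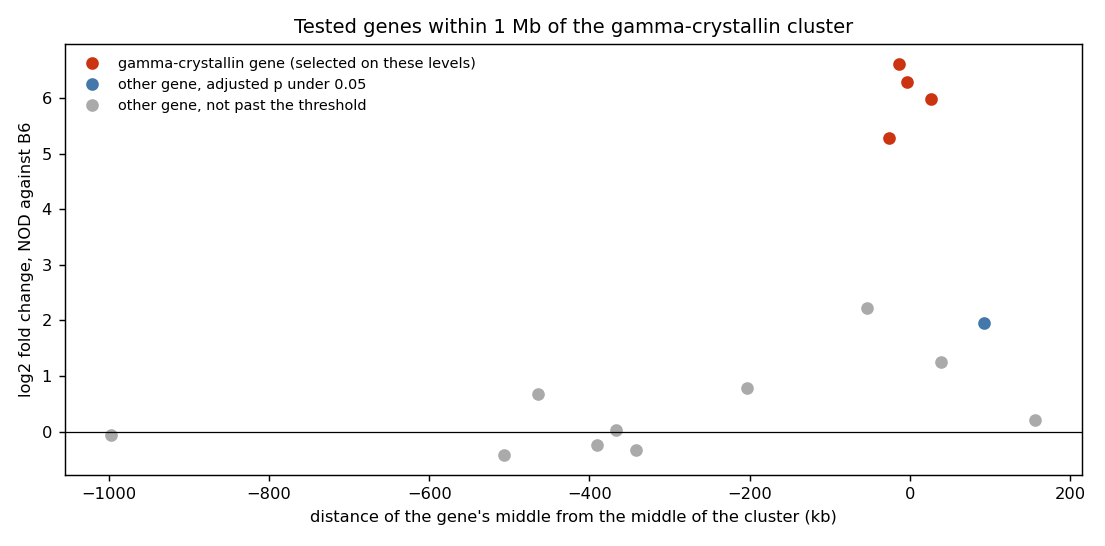
Fitted log2 fold change of NOD against B6 (y axis) for the tested genes within 1 Mb of the γ-crystallin cluster, by distance from its middle (x axis, kb). The 4 tested γ genes stand above all others, but 3 of them had 0 reads in B6, so their height depends on the 1 added to each value before taking logs. Idh1 (1.95) is the other gene past the threshold.

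Around Crygs, 19 genes were tested within 1 Mb, of which Fetub was higher in NOD than in B6 (2.55, limma adjusted p = 0.0265, background 3.14%) and Tra2b was lower (-1.58, background 3.05%, limma adjusted p = 0.0469, not called by DESeq2). Its nearest neighbours, Dgkg and Tbccd1, were not called. Around Cryab, 16 were tested, 0 were called by limma, edgeR or DESeq2, and 1 had an unadjusted limma p under 0.05. 2310030G06Rik and 1110032A03Rik, the nearest on either side, were among those not called.

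Likeness to Crygd was measured across 13808 genes with enough reads in the 5 libraries. Members and genes whose names begin with a digit were left out. The measure was the root mean square difference between log2 profiles after each was centred on its own mean. The most similar profiles were those of Efhc2 (0.71), Dppa3 (0.76) and Grhl2 (0.85). Efhc2, on the X chromosome, had normalised read counts of 181 and 145 in the NOD lines, 75.2 in NZB, 4.06 in v6.5 and 2.82 in B6, the same order of strains as Crygd. Dppa3, an early embryonic and germ cell gene, stood at 1051 and 1055 in the NOD lines, 232 in NZB, 32.5 in v6.5 and 31.0 in B6. Among the members themselves Cryga was closest to Crygd (0.64), and Cryga and Cryge were the most alike of all pairs (0.40). Cryab was nearest to Cd109 (0.12), Nxpe3 (0.13) and Syn2 (0.13), and far from Crygd (3.41). With 5 libraries many genes can share a profile, and these are descriptions.

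Markers of other cells or states moved between the same libraries. Of 17 fibroblast markers tested, 8 were called lower (background 3.05%) and 0 higher for NOD by limma against B6, and the summed level of the 19 on the list came to 10804 in NZB, 8764 in B6, 1231 in v6.5, and 856 and 696 in the NOD lines. This sum was highest in NZB and next highest in B6. Of 11 markers of the 2-cell-like state tested, 6 were called higher (background 3.14%) and 0 lower against B6, among them Zscan4d (119 and 345 in the NOD lines, 12.4 in NZB, 10.8 in v6.5, 7.04 in B6). The NOD lines reached sums of 881 and 1055 over the list, with 85.4 for NZB, 100.1 for v6.5 and 113 for B6. Eye field and retina markers summed to 47.3 to 76.2 in the 5 libraries, and of the 2 tested in NOD against B6, 0 were called by limma, edgeR or DESeq2 and 0 had an unadjusted limma p under 0.05. The part of these cells or states in the crystallin levels was not tested, and more cells with a transcript cannot be told apart from more transcript in each cell.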

How the data were processed

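Stranded poly-dT RNA libraries of 5 mouse ES cell lines were sequenced at 50 bases, single-end. The authors aligned the reads with STAR (2.2.0c per the submitters' processing notes, another version in the study's methods) to mm9 and counted them on the exons of RefSeq genes with HOMER. The deposited signal values are these read counts rescaled by the authors to 1 total for all libraries, not logged and not divided by length. Within each library 100% of the values below 3000 lay within 0.05 of whole reads, and reads were recovered by that step, 7713133 to 21387796 per library. Deposited log2 fold changes, p-values and FDR values of the authors were not used.

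Values were divided by TMM factors (edgeR 4.0.16, genes kept by filterByExpr) and tested as log2(value + 1) with limma-trend (3.58.1, R 4.3.3), Benjamini-Hochberg adjusted over all genes tested at 0.05. Because the values are rescaled, limma was the main test, and edgeR's quasi-likelihood test and DESeq2 (1.42.0) on recovered reads were alternatives. NOD against B6 was fitted on 3 libraries and the other comparisons on 5 with strain means. Fold changes on this scale understate those of low genes. Equal totals without TMM move the median of all genes by 0.77 (log2, NOD minus B6). Scripts were tested on simulated data. The members and lists were chosen with earlier results of these data known. The genes named were the members, other lens crystallins with a read and nearest genes. Added to these were up to 3 called genes of a list with the largest change. Outside the members, the 3 profiles most like Crygd and Cryab were named too.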

Additional observations from a re-analysis of the deposited data

How the results depend on the processing

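The log2 differences of the members between NOD and B6 were recomputed 48 times (2 other scalings, 2 other pseudocounts and each NOD line left out). In 18, those of Crygd, Crygs and Cryab, B6 had reads, and the sign changed in 0 of these. Both NOD lines lay on the same side of B6 for each of these genes. Another pseudocount or a line left out could therefore not change the sign, and only the 2 other scalings could. The others compare with 0 reads in B6, which fixes the sign. In size, 37 stayed within the SD of the NOD lines (log2) from the main value, and many of these could not have done otherwise. Crygf had 0 reads in NOD and B6. Each of 2 lines lies closer to their mean than their SD, so leaving 1 out always counts as within it. The 37 are therefore no measure of stability. The other 11 moved further. Cryab went from -1.44 to -0.69 with equal totals. Without NOD replicate 1 or NOD replicate 5, Crygd differed by 7.25 or 6.06, Crygc by 6.68 or 6.12, Cryga by 6.47 or 5.72, Cryge by 5.53 or 5.29 and Cryab by -2.02 or -0.86. The pseudocount moved the genes with 0 reads in B6 most, Crygc from 4.15 (5 added) to 7.39 (0.5 added). Dividing by exon length left every share in the cluster within its interval.

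Among all genes, 887 were called in NOD against B6. This became 2247 with equal totals (2040 higher), 1389 with v6.5 joined to B6, 411 with TMM over all genes (chosen after seeing the data) and 0 without a filter, where 3034 genes had an unadjusted limma p under 0.05. Without a filter the calls on Cryga, Crygc, Crygd and Cryge were lost. That setting still kept only genes with a deposited value of at least 1 in a fitted library, 18581 here and 20526 in the other comparisons. NOD against v6.5 gave 236, and 1189 (no filter), 485 (stricter filter), 837 (edgeR), 466 (DESeq2) and 0 (TMM over all genes, 2115 unadjusted). Crygd lost its call there without a filter and with TMM over all genes. NOD against NZB gave 88, and 1281, 174, 368, 215 and 11 in that order of settings. NZB against B6 gave 20, and 1303, 122, 292, 158 and 1, with 132 under equal totals. Crygd gained a call there with equal totals, the stricter filter, edgeR and DESeq2. v6.5 against B6 gave 1, and 1255, 17, 33, 24 and 0 (270 unadjusted), with 5 under equal totals, 2 with DESeq2 size factors and 3 with 5 added. Without a filter Crygf, with 1 read, was called in NOD against NZB and in NZB against B6. Nothing is read from calls on the members, which were chosen on these libraries. The cause of these differences was not tested.

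With a NOD line left out no strain has a replicate, so no count of calls can be given. No paired analysis was possible, since B6, v6.5 and NZB have no replicate and nothing in the labels marks pairs across strains. Under 11 reads, as for Crygb, Crygf and Crygs, depth decides what can be seen.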
